A study of Mus musculus with 12 samples.

Results

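Rsad2 and Cmpk2 are neighbouring mouse genes, and they are the 2 genes described here out of 54532 in the count table. They were selected on earlier results of these same libraries, in which both ranked high among the genes raised by lipopolysaccharide (LPS), and because they lie side by side on chromosome 12. Expression was measured by RNA sequencing in the N9 line, immortalised microglia of the mouse. Microglia are the macrophages of the brain. There were 4 groups of 3 libraries. One group stayed in control medium without LPS, and another had the same medium with LPS at 1 µg/ml. Control medium held dialysed serum, 3 mM glucose and 5 mM fructose. The other two had high glucose (15 mM) with LPS or high fructose (15 mM) with LPS. Cells spent 18 h in their medium before 6 h with LPS, and every group other than the first received LPS. The labels do not say whether 15 mM was the final level or was added to the control level, and they list no raised-sugar culture without LPS and no osmotic control. N9 is a single line, and the labels do not tie the libraries to separate cultures. The p-values therefore cover the spread among these libraries alone, and that spread may be technical.

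Rsad2 encodes viperin, a radical S-adenosylmethionine enzyme with an iron–sulfur cluster that sits on the endoplasmic reticulum and on lipid droplets. Viperin turns the nucleotide CTP into ddhCTP, which stops chain growth by the RNA polymerases of several viruses. Cmpk2 encodes a mitochondrial kinase that phosphorylates pyrimidine nucleoside monophosphates, a step on the way to CTP, and in macrophages it has been linked to mitochondrial DNA synthesis and the NLRP3 inflammasome. In macrophages LPS acts through Toll-like receptor 4 and its adaptor TRIF to activate IRF3 and interferon beta, and interferon then acts through factors that include STAT2 and IRF9 on genes that carry an interferon-stimulated response element (ISRE).

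Library totals ran from 15453776 to 17956772 counts. Of 12 microglia and macrophage markers, 10 had at least 10 counts in every library, while Aif1 (2 to 9 counts) and P2ry12 (1 to 6 counts) were near absent. Their summed level was 2088 to 2134 CPM (counts divided by library size, which was adjusted by the trimmed mean of M-values) with LPS in control medium, 1897 to 1989 with high glucose and 2030 to 2054 with high fructose. In bulk RNA, fewer cells of a type and less RNA per cell cannot be told apart.

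Rsad2 (ENSMUSG00000020641) occupies chr12:26442746-26456452 of GRCm38 on the minus strand, and its longest coding transcript has 6 exons. Cmpk2 (ENSMUSG00000020638) occupies chr12:26469204-26479837 on the plus strand, and its longest coding transcript has 5 exons. The genes point away from each other, with 12752 bases between their starts. In the GENCODE M21 annotation 0 other genes overlap either span, and 0 transcripts of other genes matched their transcripts at 98% identity over 75 bases. Reads of the pair were therefore not shared with an annotated copy or an antisense gene at these settings. The 250 bases before each start, taken from RefSeq (GRCm38.p6) and read in the direction of each gene, are shown because both genes rose with LPS and fell with high fructose. Capitals mark matches to the motifs searched.
Rsad2, chr12:26456453-26456702, minus strand: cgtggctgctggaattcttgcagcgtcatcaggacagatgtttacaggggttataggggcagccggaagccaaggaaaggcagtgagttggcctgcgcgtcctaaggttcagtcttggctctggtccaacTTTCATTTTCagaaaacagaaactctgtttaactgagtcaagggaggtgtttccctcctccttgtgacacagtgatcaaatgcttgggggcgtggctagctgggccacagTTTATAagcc
Cmpk2, chr12:26468965-26469214, plus strand: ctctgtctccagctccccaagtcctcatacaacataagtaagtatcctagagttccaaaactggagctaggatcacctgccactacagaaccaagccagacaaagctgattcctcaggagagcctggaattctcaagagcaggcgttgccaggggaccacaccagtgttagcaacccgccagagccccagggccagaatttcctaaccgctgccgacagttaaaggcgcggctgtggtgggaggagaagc

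The motifs searched, on both strands, were an ISRE-type motif (GAAANNGAAA), the STAT motif known as GAS (TTCNNNGAA), an NF-kB motif and TATAAA. The Rsad2 window held the ISRE letters on the opposite strand at bases −120 to −111 from the start, and TATAAA, also on the opposite strand, at −10 to −5. The Cmpk2 window held 0 matches to these motifs, which says only that these letters are not in this window. Of 32851 mouse promoters of the same length, 978 (2.98%) held the ISRE letters, against 311 of 9329 tested genes (3.33%) and 13 of 23 listed interferon-stimulated genes with a RefSeq entry (56.5%). TATAAA was held by 12.4% of all promoters, GAS by 7.02% and the NF-kB motif by 9.55%. A match is a description of the sequence and not a measured binding site.

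The levels of both genes separated the libraries with and without LPS by more than 1 order of magnitude. Rsad2 had 134, 129 and 103 counts in the 3 unstimulated libraries (7.68, 7.21 and 5.48 CPM). With LPS in control medium it had 18720, 20008 and 17645 counts (1162, 1194 and 1054 CPM), and with high glucose 20205, 21403 and 16664 (1236, 1314 and 1062 CPM). With high fructose it had 9339, 9492 and 7733 counts (576, 589 and 509 CPM). All 3 high-fructose libraries lay below all 6 other LPS libraries, and the control-medium and high-glucose libraries overlapped. Cmpk2 had 78, 131 and 126 counts without LPS (4.47, 7.32 and 6.7 CPM) and 10825, 11267 and 9597 with LPS in control medium (672, 672 and 573 CPM). It had 10733, 10477 and 8347 counts with high glucose (656, 643 and 532 CPM) and 4386, 4663 and 4032 with high fructose (271, 289 and 265 CPM). The order was that of Rsad2 as far as the libraries separate them: lowest without LPS, then high fructose, then the overlapping pair of control medium and high glucose. Library 3 was the lowest of its group for both genes in each of the LPS groups.

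**Figure D1:**
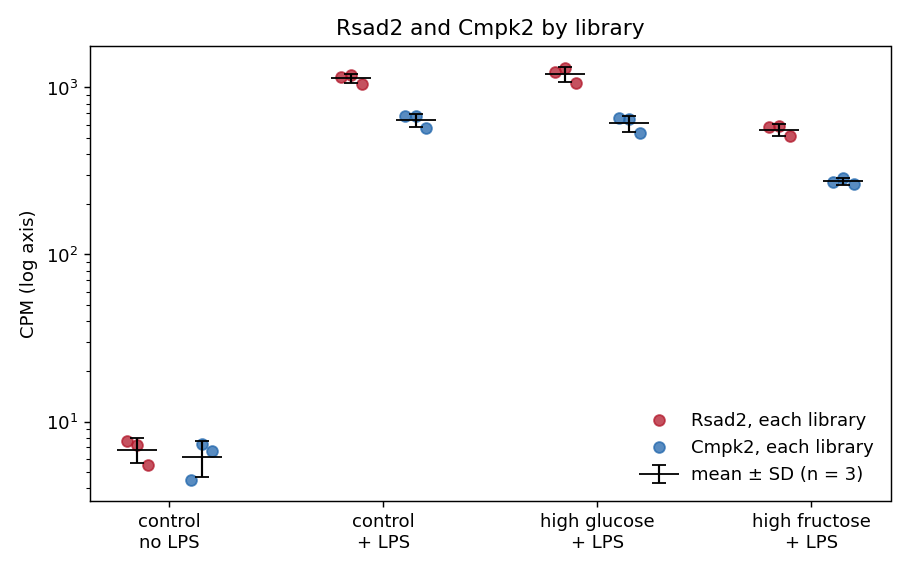
CPM of Rsad2 (red) and Cmpk2 (blue) in each of the 12 libraries on a log axis, by group, with the mean and SD of 3 libraries as black bars. The high-fructose libraries lie between 509 and 589 CPM for Rsad2 and between 265 and 289 CPM for Cmpk2, below every other LPS library of the same gene and far above the unstimulated ones.

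LPS in control medium raised Rsad2 from 6.79 ± 1.16 to 1137 ± 73.5 CPM (mean ± SD, n = 3), a ratio of 167, and Cmpk2 from 6.16 ± 1.5 to 639 ± 57.2 CPM, a ratio of 104. These rises chose the genes, so they are described here with no test. The log2 changes fitted by edgeR were 7.39 ± 0.12 (SE) for Rsad2 and 6.69 ± 0.13 for Cmpk2. On the scale per length, Rsad2 went from 1.56 ± 0.267 to 261 ± 17.1 FPKM (fragments scaled by gene length and library total), and Cmpk2 from 1.47 ± 0.359 to 153 ± 13.8 FPKM. Among 22046 protein-coding genes ranked by FPKM in each library, Rsad2 moved from ranks 8843 to 9328 without LPS to ranks 153 to 179 with LPS. Cmpk2 moved from ranks 8888 to 9509 to ranks 280 to 326. LPS raised 1941 of 12766 tested genes (15.2%) and lowered 1736 (13.6%). That split rested on the scaling, being 1622 higher and 2292 lower under upper-quartile scaling, or 1412 and 2951 under unscaled totals. By size of rise Rsad2 was at rank 6 of the 1941 and Cmpk2 at rank 15.

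High glucose left both genes near their LPS level. Rsad2 was at 1204 ± 129 CPM with high glucose, 106% of the mean in control medium with LPS, a log2 change of 0.08 (95% interval −0.09 to 0.25; edgeR adjusted p = 0.72). Cmpk2 was at 611 ± 68.2 CPM, 95.5% of that mean, a change of −0.07 (−0.26 to 0.12; edgeR adjusted p = 0.819). Neither passed the test, and the intervals bound the difference without showing equal levels. The sign for Cmpk2 turned to 0.02 when high-glucose library 3 was left out. High glucose raised 0.587% of tested genes (75) and lowered 0.971% (124), 199 genes in all. The total was 67, 74 and 71 without control-medium LPS libraries 1, 2 and 3, and 70 without high-glucose library 3.

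High fructose lowered both genes. Rsad2 fell to 558 ± 43.1 CPM, 49.1% of the mean in control medium with LPS, a log2 change of −1.03 ± 0.08 (SE; 95% interval −1.20 to −0.86; edgeR adjusted p = 4.51e-07). Cmpk2 fell to 275 ± 12.6 CPM, 43% of that mean, a change of −1.22 ± 0.09 (−1.41 to −1.02; edgeR adjusted p = 2.74e-07). High fructose lowered 2.55% of tested genes (325) and raised 2.37% (302), and by size of fall Cmpk2 was at rank 15 and Rsad2 at rank 34 of the 325. The sugar results were also known when the genes were chosen, so these p-values are not independent of that choice. Both genes stayed far above the unstimulated level, at 82.2 times it for Rsad2 and 44.6 times for Cmpk2. By FPKM they still ranked 315 to 396 and 731 to 832 among protein-coding genes. The call held for both genes whichever library was left out, with log2 changes of −1.08 to −0.96 for Rsad2 and −1.29 to −1.18 for Cmpk2.

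Some other measures differed between the same groups, and others overlapped. The summed level of microglia and macrophage markers was 2088 to 2134 CPM with LPS in control medium and 2030 to 2054 with high fructose, with no overlap. Genes of ribosomal RNA took 0.585, 0.535 and 0.457% of counts with LPS in control medium and 0.423, 0.313 and 0.365% with high fructose, with no overlap. The summed level of 4 oligodendrocyte markers was 27.7 to 28.9 CPM with LPS in control medium and 32.6 to 37.5 with high fructose. Nearly all of it was Mbp (443 to 672 counts a library), while Mog had 0 to 1 counts and Mag 0 to 8. Astrocyte markers, mostly Aldh1l1, summed to 20.9 to 24.4 and 21 to 23.9 CPM, lymphocyte markers to at most 0.255 CPM in any library, and endothelial markers to 1.61 to 2.27 and 1.05 to 1.73. Neuron markers summed to 0.239 to 1.24 and 0.925 to 2.05 CPM, and fibroblast markers to 0.776 to 5.28 and 0.789 to 14.3. The part of these in the fall of Rsad2 and Cmpk2 was not tested.

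Compared directly, high fructose gave lower levels than high glucose for both genes. Rsad2 was at 46.3% of its high-glucose mean, a log2 difference of −1.11 ± 0.08 (95% interval −1.28 to −0.94; edgeR adjusted p = 4.51e-07). Cmpk2 was at 45%, a difference of −1.15 ± 0.09 (−1.35 to −0.96; edgeR adjusted p = 1.53e-06). As above, these p-values are not independent of the choice of the genes. This contrast is also the test of whether the 2 sugars acted differently, since their shared control libraries cancel out of it. In it 1.88% of tested genes (240) were lower and 1.84% (235) higher with fructose, and Cmpk2 and Rsad2 were at ranks 12 and 14 of the 240 by size.

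**Figure D2:**
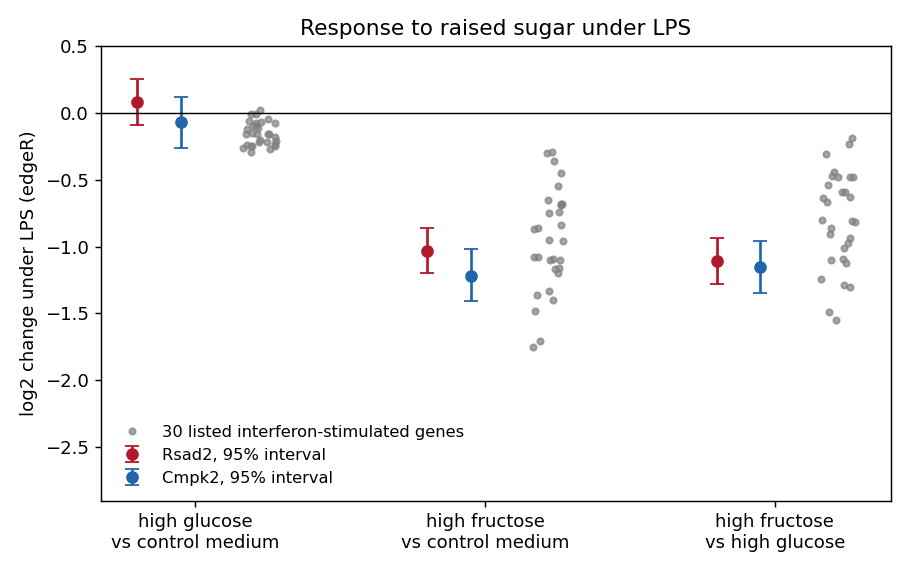
Log2 changes under LPS in the 3 sugar comparisons, with 95% intervals for Rsad2 (red) and Cmpk2 (blue), and one grey point for each of 30 listed interferon-stimulated genes, spread sideways for legibility. The intervals of both genes span 0 with high glucose and lie below −0.80 in both comparisons with high fructose, inside the range of the grey points.

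The pair kept a similar ratio in the LPS libraries. Rsad2 FPKM divided by Cmpk2 FPKM was 1.66, 1.71 and 1.77 with LPS in control medium, 1.81, 1.96 and 1.92 with high glucose, and 2.04, 1.95 and 1.84 with high fructose. Without LPS it was 1.65, 0.946 and 0.785, from about 100 counts a gene in each library. The ratios of both raised-sugar groups lay above those of control medium with LPS, by 0.15 ± 0.08 (log2, SD) for glucose and 0.19 ± 0.09 for fructose, while the raised-sugar groups overlapped. An exact two-sided permutation test of 3 against 3 libraries gave p = 0.10 for glucose and for fructose, the smallest it can give, and p = 0.50 between the sugars. The Benjamini-Hochberg adjusted values over these 3 comparisons were 0.15, 0.15 and 0.50 (exact permutation). With a smallest p of 0.10 this test could not pass at 0.05, so it does not decide whether the ratio shifted. The mean log2 ratio of either raised-sugar group was within 0.23 of that in control medium with LPS, also with any 1 library left out. The genes themselves moved by more than 1 log2 unit with fructose.

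How the genes varied with each other was measured over libraries. Over the 6 LPS libraries of control medium and high glucose, Pearson's r of log2 CPM was 0.754 (exact permutation p = 0.11) and Spearman's rho 0.429 (exact permutation p = 0.419), which did not pass. Without the 2 libraries farthest from the median of Rsad2, r was 0.883 (n = 4). The high-fructose libraries form a cluster of their own, so no uncentred value was pooled over all 9 LPS libraries. Centred on group means, r over the 6 libraries was 0.939 (exact permutation p = 0.0208) and rho 0.829 (exact permutation p = 0.0583). Centred over all 9, r was 0.883 (exact permutation p = 0.00389) and rho 0.7 (exact permutation p = 0.0433), and r was 0.835 without the 2 libraries farthest from the median. Centring ties the values of a group together, so pairings were also permuted within groups only. That gave an exact permutation p of 0.0139 for r over 9 libraries and 0.0833 over 6. Library 3 was the lowest for both genes in each LPS group, and its part in these values was not tested. All these correlations are versions of 1 relation. Centring over all 9 libraries was planned, while the centred values over 6 and the permutations within groups were added after the data were seen.

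**Figure D3:**
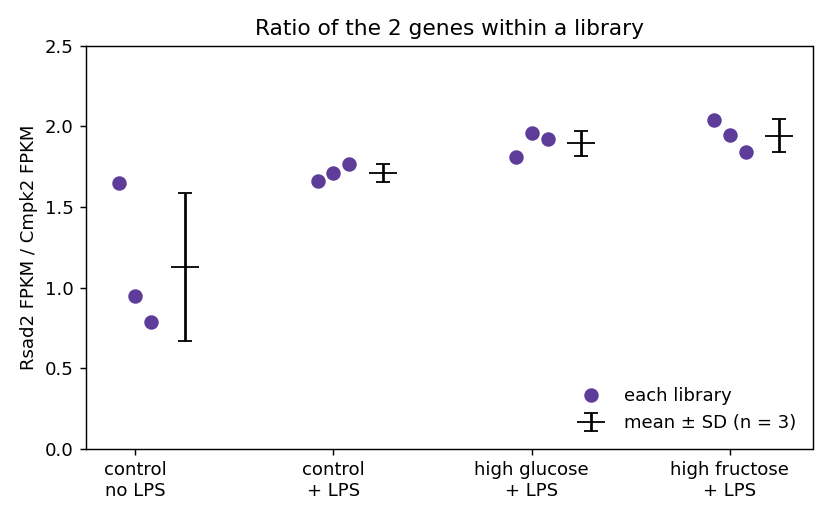
Rsad2 FPKM divided by Cmpk2 FPKM in each of the 12 libraries, with the mean and SD of 3 libraries beside each group. The 9 LPS libraries lie between 1.66 and 2.04, and the unstimulated libraries, with few counts, between 0.785 and 1.65.

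The induction was not shared by the surrounding genes. Within 500 kb of the pair the table lists 12 other genes, of which 10 had no count in any library and 0 had enough counts to test. The highest count of another gene in any library was 2. Rnf144a, a ubiquitin ligase gene and the 1 other protein-coding gene in the window, had 0 counts without LPS and 2 in all over the LPS libraries of control medium. The nearest tested genes were Id2, for a helix-loop-helix inhibitor of differentiation, 1345606 bases beyond Rsad2, and Rps7, a ribosomal protein gene, 2151017 bases beyond Cmpk2. Id2 was at 103 ± 4.93 CPM without and 102 ± 6.39 with LPS (log2 change −0.01, edgeR adjusted p = 0.949), and at 112 ± 6.3 and 110 ± 7.36 with high glucose and high fructose. The log2 change of Rps7 was 0.10 with LPS (edgeR adjusted p = 0.263) and −0.07 with high fructose (edgeR adjusted p = 0.689).

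**Figure D4:**
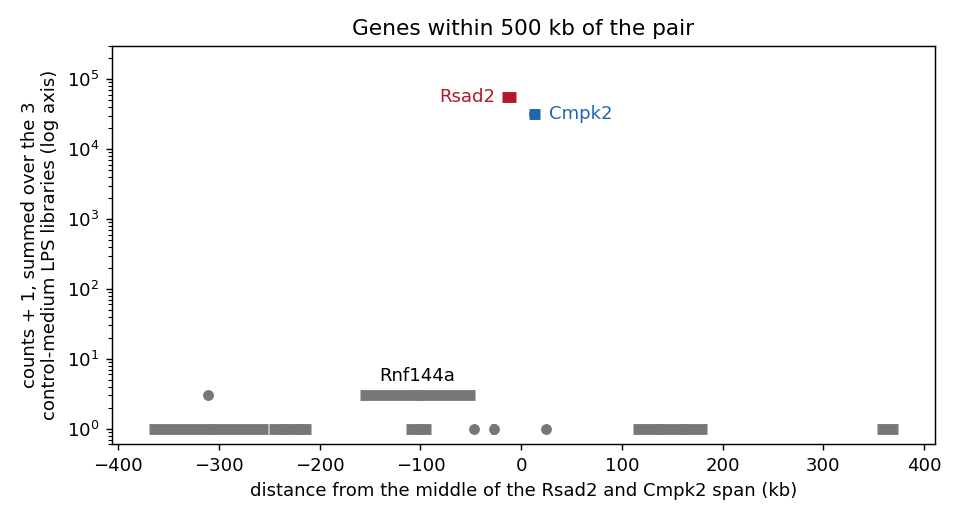
Counts plus 1, summed over the 3 LPS libraries of control medium (log axis), for each of the 14 genes within 500 kb, drawn at its distance in kb from the middle of the span of the pair. Bars show each gene's extent and dots its middle. Rsad2 and Cmpk2 stand at 56373 and 31689 counts, and the other genes at 0 or 2.

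On log2 CPM, the genes whose profile over the 12 libraries was nearest to the pair came from other chromosomes. The measure was the root mean square difference of log2 CPM after centring each gene on its own mean, over 10083 protein-coding genes. It reads the LPS change that chose the pair, so it is a description. Nearest to Rsad2 were Ifit3b (0.165), Ifit3 (0.274), Cxcl10 (0.285), Ifit1 (0.302) and Nos2 (0.39). Nearest to Cmpk2 were Ifit1 (0.188), Ifit3 (0.224), Cxcl10 (0.259), Gbp7 (0.304) and Apol9a (0.317). Cmpk2 was at place 6 in the list for Rsad2 and Rsad2 at place 9 in that for Cmpk2 (0.417), places that became 1 and 5 on log2 FPKM. The lists thus depend on the scale: for each member, 3 of the 5 nearest genes were also among the 5 nearest on log2 FPKM.

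Ifit1, Ifit3 and Ifit3b, neighbours on chromosome 19, encode proteins of the RNA-binding IFIT family. Ifit1 was at 2.22 ± 0.168 CPM without LPS and 296 ± 33.1 with it, then 254 ± 33.3 with high glucose and 118 ± 14.5 with high fructose. Its fall with fructose was −1.33 ± 0.10 (edgeR adjusted p = 2.07e-07), and those of Ifit3 and Ifit3b were −1.40 and −1.20. Cxcl10, the chemokine that draws T cells, went from 204 ± 18.1 CPM with LPS in control medium to 79.6 ± 5.15 with high fructose (−1.36 ± 0.09, edgeR adjusted p = 3.39e-08). A gene on the opposite strand overlaps 5.91% of its exonic bases. Gbp7, a guanylate-binding protein gene, fell by 1.23 on the log2 scale with fructose. Apol9a was at −0.94 but is uncertain, since 100% of its coding transcript matches another gene. Nos2, the inducible nitric oxide synthase gene, was at 19.8 ± 2.82 CPM in control medium with LPS, 27.1 ± 0.877 with high glucose and 13.2 ± 1.22 with high fructose. Its fall with fructose (−0.58, edgeR adjusted p = 0.00669) did not pass without control-medium LPS library 2 (edgeR adjusted p = 0.0608).

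Of these 7 genes 6 had a RefSeq promoter entry, and all 6 held the ISRE letters in the 250 bases before the start. The share was 3.33% over tested genes and 56.5% over listed interferon-stimulated genes. Ifit1, Ifit3, Ifit3b and Cxcl10 are themselves on that list, so the 56.5% is not separate from them. The matches of Ifit3 and Ifit3b had the same letters, flanks included, so these genes are not separate cases. The match of Rsad2 is shown beside the one farthest upstream in Ifit1, Ifit3 and Cxcl10 and the one in Gbp7, on the strand that reads GAAANNGAAA, with the motif in capitals and 8 flanking bases on each side (GRCm38.p6).
Rsad2, chr12:26456555-26456580, plus strand: tgttttctGAAAATGAAAgttggacc
Ifit1, chr19:34640777-34640802, minus strand: tgagactgGAAAGTGAAActgaagcc
Ifit3, chr19:34583365-34583390, minus strand: cagaagagGAAAGTGAAActtaccac
Cxcl10, chr5:92349085-92349110, minus strand: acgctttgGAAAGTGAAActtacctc
Gbp7, chr3:142530275-142530300, minus strand: ggagaactGAAACTGAAActgcacac

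In the matches shown, the 2 middle bases were GT in Ifit1, Ifit3 and Cxcl10, CT in Gbp7 and AT in Rsad2. The other match of Ifit1 (from −85) and that of Ifit3 (from −122) had CT, as in Gbp7. Cxcl10 also held NF-kB matches and Gbp7 GAS matches. Cmpk2, whose nearest profile was that of Ifit1, was the 1 gene among these with a RefSeq entry whose window held 0 matches. The lack of ISRE letters is not particular to Cmpk2, since only 13 of 23 listed interferon-stimulated genes held them.

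**Figure D5:**
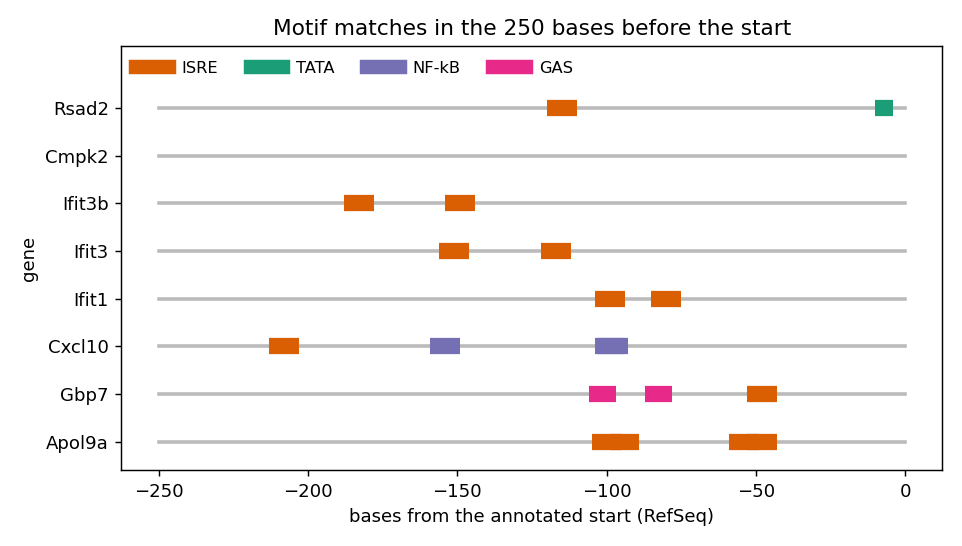
Matches to the ISRE, TATAAA (labelled TATA), NF-kB and GAS motifs on either strand in the 250 bases before the RefSeq start of the pair and of 6 genes with near profiles, by distance from the start in bases. The Rsad2 window has an ISRE match at −120 and a TATAAA match at −10, and the Cmpk2 line is empty.

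Of 32 listed interferon-stimulated genes without the pair, 30 were tested. With LPS all 30 were called higher, against 15.2% of all tested genes. Their median log2 change was 4.42 (−0.00 over all tested genes), and 1 rose by more than Rsad2 and 4 by more than Cmpk2. With high fructose all 30 were called lower, against 2.55% of all tested genes, by −1.75 to −0.29 (median −0.96, against −0.00). Under each of 17 other settings, left-out libraries included, 29 or 30 of them were called. Of the 30, 14 fell further than Rsad2 and 6 further than Cmpk2. The falls included Mx1, a GTPase that traps viral nucleocapsids, at −1.75 ± 0.20, Isg15, a ubiquitin-like modifier, at −1.09 ± 0.08, and the RNA sensor genes Ifih1 and Ddx58 at −0.84 and −0.95. Small falls were those of the oligoadenylate synthetase family genes Oasl1 (−0.30) and Oas3 (−0.29). Oas3 no longer passed without control-medium LPS library 2 or 3 or high-fructose library 1 or 3 (edgeR adjusted p 0.0692 to 0.15). With high glucose 0 of 30 were called by edgeR (median −0.16), where 1.56% of all tested genes were called. DESeq2 called 2, and 0 to 10 were called over 17 other settings. An unadjusted p below 0.05 was reached by 12 of the 30, against 13.9% of all tested genes. The change of Rsad2 with high glucose (0.08) was above the range of the 30 (−0.29 to 0.02), though its 95% interval (−0.09 to 0.25) reached into it. That of Cmpk2 (−0.07) was inside the range, with 25 of the 30 lower. Between the sugars 29 were called lower with fructose, against 1.88% of all tested genes. The median was −0.80, with 6 lower by more than Rsad2 and 5 by more than Cmpk2.

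Of 20 genes on the route from the LPS receptor to interferon response, 18 were tested. LPS raised 13 of 18 (15.2% of all tested genes) and lowered 1 (13.6% of all), the receptor gene Tlr4 (−0.53). The interferon-induced factor gene Irf7 rose by 3.96, the negative regulator gene Usp18 by 5.49, and Stat2 and Irf9 by 2.24 and 2.07. With high fructose 7 of 18 were lower and 0 higher (median −0.17), among them Irf7 by −0.93 ± 0.07, Usp18 by −0.99 ± 0.09, Stat2 by −0.69 ± 0.08, Irf1 by −0.39 ± 0.09, the kinase gene Ikbke by −0.27 ± 0.07 and Irf9 by −0.25 ± 0.06 (edgeR adjusted p from 1.56e-07 to 0.0274). Irf1 did not pass without control-medium LPS library 1 or 2 or high-fructose library 2, nor Irf9 without control-medium LPS library 1 or 2 or high-fructose library 1 or 3 (edgeR adjusted p 0.0545 to 0.0957). Ikbke passed in 1 of its 6 leave-one-out fits, the one without high-fructose library 2 (0.0518 to 0.153 in the others). The list then had 4 called genes without control-medium LPS library 1 and 4 without library 2. The other 11 tested genes of the list did not pass with fructose, where 4.91% of all tested genes were called. They include Tlr4 (0.12, edgeR adjusted p = 0.35), its adaptor Ticam1 (0.02, adjusted p = 0.933), the kinase gene Tbk1 (−0.04, adjusted p = 0.845), Irf3 (0.12, adjusted p = 0.647) and the receptor genes Ifnar1 (−0.11) and Ifnar2 (−0.10).

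With high glucose 2 of the 18 were lower, against 0.971% of all tested genes. They were Ikbke, by −0.39 (edgeR adjusted p = 0.0068), and Tyk2, a receptor-bound kinase gene, by −0.32 (edgeR adjusted p = 0.0168). Tyk2 did not pass without control-medium LPS library 1 or 2 or high-glucose library 2 or 3, nor Ikbke without control-medium LPS library 2 (edgeR adjusted p 0.0537 to 0.104). Between the sugars 5 were lower with fructose, against 1.88% of all tested genes, among them Irf7, Stat2, Irf1 and Usp18, by −0.78 to −0.47. The 1 that was higher, against 1.84% of all tested genes, was Tyk2 (0.30, edgeR adjusted p = 0.0111). Tyk2 lost that call without high-glucose library 2 or high-fructose library 3 (edgeR adjusted p 0.0698 and 0.0555). The interferon beta gene Ifnb1 was barely counted: 0 in the unstimulated libraries, 1, 1 and 0 with LPS in control medium, 3, 2 and 1 with high glucose, and 0 in each high-fructose library. Ifna4 had 0 counts in all 12. Neither could be tested at this depth.

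The counts that follow are read against all tested genes, of which LPS raised 15.2% and lowered 13.6%, and of which 1.56% were called with high glucose, 4.91% with high fructose and 3.72% between the sugars. At those shares 0 or 1 call in a sugar comparison says nothing particular about a list of this size. The list of viperin partners held 12 symbols, older and newer names of a gene included, and all 11 found in the count table were tested. Among them were Fdps, for farnesyl diphosphate synthase, the signalling genes Irak1 and Traf6, and Hadhb of mitochondrial fatty acid oxidation. LPS lowered 1 of 11, or 5 with unscaled library totals, and raised 0. The 1 was Fdps (−0.79, edgeR adjusted p = 0.0164), which is uncertain because 91.4% of its coding transcript matches other genes. It did not pass without unstimulated library 2 or control-medium LPS library 1 or 2 (edgeR adjusted p 0.0502 to 0.079). In the 3 sugar comparisons 0 of 11 were called by edgeR or DESeq2, with 1, 1 and 0 at an unadjusted p below 0.05 for glucose, fructose and fructose against glucose. Over all tested genes that share was 13.9%, 15.5% and 15.6%. The list of iron–sulfur assembly and radical S-adenosylmethionine genes held 21 symbols, again with older and newer names. All 18 found in the count table were tested. LPS raised 2 of 18, Mocs1 (0.89) and Ciapin1 (0.20), and lowered 1, which are no larger than the shares over all tested genes. The total of 3 ran from 1 to 5 over other settings, with 1 without unstimulated library 2, 2 without unstimulated library 3 or control-medium LPS library 3, and 5 with unscaled library totals. Ciapin1 did not pass without unstimulated library 2 or 3 (edgeR adjusted p 0.0635 and 0.0812). In the sugar comparisons 0 of 18 were called by edgeR, with 2, 1 and 0 at an unadjusted p below 0.05. Elp3, named after its values were seen, was next to the threshold with fructose (−0.18, edgeR adjusted p = 0.0509). It was called in 8 of 17 other settings, DESeq2 and other edgeR settings among them (adjusted p 0.0334 to 0.217).

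Pyrimidine nucleotide genes share the pathway of the Cmpk2 kinase. Their list held 28 symbols, older and newer names included, and 26 of the 27 found in the count table were tested. LPS raised 4 of 26, near the 15.2% of all tested genes, and lowered 7, against 13.6% of all. Upp1, for uridine phosphorylase, rose by 1.19 and Samhd1, for a deoxynucleotide hydrolase, by 0.97. Tk1, for thymidine kinase, fell by 1.03 and Rrm2, a ribonucleotide reductase subunit gene, by 0.53. Cmpk1, the cytosolic relative of Cmpk2, was at −0.15 with LPS (edgeR adjusted p = 0.0381, but 0.0526 to 0.18 without unstimulated library 1 or 2 or any of the control-medium LPS libraries) and at −0.05 and −0.03 with high glucose and high fructose, neither of which passed. High fructose lowered 3 of the 26 (median −0.11): Dck, for deoxycytidine kinase, by −0.54 ± 0.06, Samhd1 by −0.41 ± 0.06 and Rrm2 by −0.30 ± 0.05 (edgeR adjusted p from 9.82e-06 to 0.000566). High glucose changed 0 by edgeR or DESeq2 (1.56% of all tested genes by edgeR), with 5 of 26 at an unadjusted p below 0.05 (13.9% of all). Against high glucose the same 3 genes were lower with fructose, by −0.37, −0.28 and −0.26, and Samhd1 did not pass without high-fructose library 3 (edgeR adjusted p = 0.0533).

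All 15 listed genes of mitochondrial DNA upkeep and the NLRP3 inflammasome were tested. LPS raised 5 of 15 (15.2% of all tested genes), among them Il1b (5.87), Il18 (1.83), Nlrp3 (1.52) and Casp1 (0.67), and lowered 2, including the mitochondrial RNA polymerase gene Polrmt (−0.25), near the 13.6% of all. Against control medium with LPS, high glucose and high fructose each changed 0 by edgeR or DESeq2, with 3 and 3 at an unadjusted p below 0.05 (13.9% and 15.5% of all tested genes). Between the sugars Nlrp3 was higher with fructose (0.24 ± 0.07, edgeR adjusted p = 0.0484), a call that was lost without any 1 of high-glucose libraries 1, 2 and 3 or high-fructose libraries 2 and 3 (edgeR adjusted p 0.0934 to 0.189).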

How the data were processed

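For 12 libraries the authors deposited a table of raw counts by Ensembl gene and a table of FPKM. Counting used featureCounts 1.5.0-p3 on mm10, per the submitters' processing notes. The sources used here do not name the aligner, annotation release or strand setting. The deposited FPKM equalled the count divided by gene length and 1 constant per library (largest deviation 1.18e-07%).

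The members and gene lists were chosen with earlier results of these data known. Counts were tested with edgeR 4.0.16 (R 4.3.3): filterByExpr left 12766 genes, library sizes were scaled by TMM, and 1 quasi-likelihood model held all 12 libraries (8 residual degrees of freedom before moderation). P-values were adjusted over all tested genes (Benjamini-Hochberg), and calls were made at an adjusted p below 0.05. The script was tested on simulated data. DESeq2 1.42.0 and limma 3.58.1 on log2 FPKM were alternatives.

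Named genes were the pair, tested genes within 500 kb, the 5 nearest profiles of each (among tested protein-coding genes whose mean reached 50 counts in a group), up to 4 members of each list called with LPS, and members called in a sugar comparison. Similar sequences were sought with BLAST 2.17.0+. A planned correlation over 9 LPS libraries was restricted to 6, since the high-fructose libraries form a separate cluster. The main fit has no replicate block, since no label says that a number marks a shared culture or day. Same-numbered libraries did not correlate over 0.1 in every pair, which does not exclude a shared culture or day. Values of some listed genes are not reported here.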

Additional observations from a re-analysis of the deposited data

Results flagged for a closer look

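For both genes the effect of high fructose differed from that of high glucose by a test of the difference itself. For Rsad2 the effect of fructose minus that of glucose was −1.11 on the log2 scale (edgeR adjusted p = 4.51e-07), and all 3 high-fructose libraries (509 to 589 CPM) lay below all 3 high-glucose libraries (1062 to 1314 CPM). For Cmpk2 the difference was −1.15 (edgeR adjusted p = 1.53e-06), with 265 to 289 CPM against 532 to 656 CPM. This is the comparison of the sugars already given in the results. The sugar results were known when the genes were chosen, so its p-values are not independent of that choice.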

How the results depend on the processing

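Over 17 other settings the falls of Rsad2 and Cmpk2 with high fructose, against control medium and against high glucose, kept their direction and their call. The log2 changes were −1.08 to −0.96 and −1.29 to −1.18 against control medium (largest adjusted p 0.000922 and 0.000911) and −1.20 to −1.05 and −1.24 to −1.09 against high glucose (largest adjusted p 0.00139 and 0.00216). With limma on log2(FPKM + 1), with and without the filter, the LPS change was 6.68 for Rsad2 and 5.97 for Cmpk2, because the added 1 is close to the unstimulated level. The high-glucose change of Cmpk2 ran from −0.14 to 0.02 with 1 library left out and turned to 0.02 without high-glucose library 3 (adjusted p = 0.954). That library had the lowest Cmpk2 level of its group (532 CPM, against 656 and 643), and why it was low was not tested.

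Counts of called genes ranged from 67 to 427 for high glucose (199 in the main analysis), 426 to 847 for high fructose (627) and 247 to 735 between the sugars (475). Of 156 results for listed genes, 23 lost their call under at least 1 setting and 0 reversed. Same-numbered libraries did not deviate together in every pair (correlations −0.194 to 0.119), although in the fructose comparison each library correlated best with its own number (0.0656, 0.0902 and 0.1). With the replicate number as a block, the changes were 0.08, −1.03 and −1.11 for Rsad2 and −0.07, −1.21 and −1.15 for Cmpk2 (glucose, fructose, fructose against glucose), and 391, 847 and 735 genes were called. The block called 10 of the 30 listed interferon-stimulated genes with high glucose, and the fit with no filter 9, against 0 in the main analysis. Centred on group means, the correlation of the pair over 6 libraries was 0.939 (exact permutation p = 0.0208, or 0.0833 within groups), alternatives chosen after seeing the data.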
